A study of Mus musculus with 40 samples.

Results

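The mouse major histocompatibility complex (MHC) was taken as the tiles of chromosome 17 from 33901501 to 37282900 (mm9), a fixed window that held 3485 of the 971845 tiles of 100 bp in the methylation table. Of these, 437 from 34135801 to 34495100 formed the class II part and 3048 formed the rest. The table was made by reduced representation bisulfite sequencing (RRBS), a readout of cytosine methylation limited to CpG-rich restriction fragments, from 24 libraries of B-lineage cells in 8 groups of 3. Follicular B cells, a mature resting population written FoB, and pro-B cells, an early marrow stage written ProB, came each from 4 genotypes of C57/bl mice: double knockouts of Tet2 and Tet3 (DKO), Tet3 knockouts (Tet3KO), Tet2 knockouts (Tet2KO) and wild type (WT). The knockouts are described in the labels as inducible under the MB1 promoter, which is active in B-lineage cells. At both stages mice were 7, 7 and 6 weeks old in DKO, 7 weeks in Tet3KO, and 8, 6 and 6 weeks in Tet2KO and WT. The Tet2KO libraries were all from females and the other groups were mixed. Whether each library stands for its own mouse is not stated in the labels, so p-values measure only the spread between libraries, which may be technical. The loss of Tet2 and Tet3 was not checked here.

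The MHC encodes the molecules that show peptides to T cells. Class II molecules, the H2-A and H2-E heterodimers, present peptides of engulfed proteins to helper T cells, and B cells are among the few cell types that carry them. H2-DM edits the peptides loaded onto them, and H2-O modulates H2-DM. Genes of the class I pathway, Tap1, Tap2, Psmb8 and Psmb9, lie among the class II genes. The genes listed here for the class II part also include the class I gene H2-K1, and Ring1, Slc39a7, Rxrb and Col11a2. The rest of the region holds further class I genes and the class III genes. Tet2 and Tet3 oxidise 5-methylcytosine, a step towards its removal.

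The promoters of the class II genes differ in how many CCGG sites they hold, the sites at which RRBS cuts. Whether tiles covered these promoters was not examined. Among 300 bp promoter windows of RefSeq (GRCm38.p6, a different build from the tiles, used here for sequence only), 18 of 21 listed genes of the class II part were matched. No window of H2-Ab1, the beta chain of H2-A, or of Tap2 was among those matched, and some genes had more than a single window. Of 9 windows of class II molecules, H2-DM and H2-O, 2 held CCGG (22.2%), with a median of 3 CpG. Of 14 windows of the other genes, 12 held it (85.7%), with a median of 16.5 CpG, and over all 32851 promoters the share was 52.8% and the median 7. CCGG reads the same on both strands. The windows of H2-Aa, the alpha chain of H2-A, and H2-DMa, the alpha chain of H2-DM, are shown as a CpG-poor and a CpG-rich example; capitals mark each CpG. H2-Aa (chr17:34287774-34288073, minus strand) holds 3 CpG and no CCGG, and H2-DMa (chr17:34122582-34122881, plus strand) holds 29 CpG and 3 CCGG. Another window of H2-DMa (chr17:34125268-34125567) holds 0 CpG and 0 CCGG. The H2-DMa window shown overlaps a minus-strand window of Brd2 (chr17:34122558-34122857), which holds 32 CpG and 3 CCGG.
H2-Aa: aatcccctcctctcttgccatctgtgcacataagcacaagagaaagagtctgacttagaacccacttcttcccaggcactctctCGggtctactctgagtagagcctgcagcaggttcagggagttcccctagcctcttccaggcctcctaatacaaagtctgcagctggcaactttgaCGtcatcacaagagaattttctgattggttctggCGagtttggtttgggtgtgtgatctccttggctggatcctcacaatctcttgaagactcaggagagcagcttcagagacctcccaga
H2-DMa: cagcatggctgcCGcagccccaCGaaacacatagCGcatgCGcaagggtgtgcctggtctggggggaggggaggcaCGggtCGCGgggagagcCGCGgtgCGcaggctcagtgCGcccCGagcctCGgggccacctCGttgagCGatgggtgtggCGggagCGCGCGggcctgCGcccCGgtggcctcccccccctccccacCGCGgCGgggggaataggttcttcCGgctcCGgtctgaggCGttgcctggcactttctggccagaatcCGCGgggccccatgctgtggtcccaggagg
The tiles carry no gene names here because an annotation of their build was not used, so none of the levels below is assigned to one of these promoters.

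Of the 3485 tiles, 2984 had a value in at least 1 library. Values are methylation fractions, given here as percentages, and come without coverage, so their depth is unknown. Levels were averaged over the 710 tiles (92 class II, 618 rest) with a value in 23 libraries, all but pro-B Tet3KO library 8, which had a value at 18 class II tiles and 132 tiles of the rest. Single tiles were tested over the 1054 (135 class II, 919 rest) that each group covered in 2 or more of its 3 libraries. The number of class II tiles with a value was 240 to 251 in FoB DKO and 271 to 282 in FoB WT, and 152 to 242 in ProB DKO and 187 to 235 in ProB WT. Its part in the differences below was not tested.

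Most of the tiles with a value in 23 libraries had low methylation in both cell types. This was not so over all tiles that each library had. There the class II part averaged 47.6% in FoB WT and 37.4% in ProB WT, and the rest 50.2% and 37.8%. Of the 710 tiles, 550 (77.5%) averaged under 20%, 83 (11.7%) between 20 and 80%, and 77 (10.8%) over 80%, against 66.5%, 10.05% and 23.4% of the 128596 autosomal tiles of the same kind. The class II part held 67, 12 and 13 tiles in these classes and the rest 483, 71 and 64. The 74 tiles of the rest that precede the class II part were nearly all low, with 69 under 20% and none between 20 and 80%. A level over 10% was not reached in any of the 23 libraries at 60 of 92 class II tiles and 375 of 618 tiles of the rest. The other tiles exceeded 10% in at least 1 library.

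**Figure D1:**
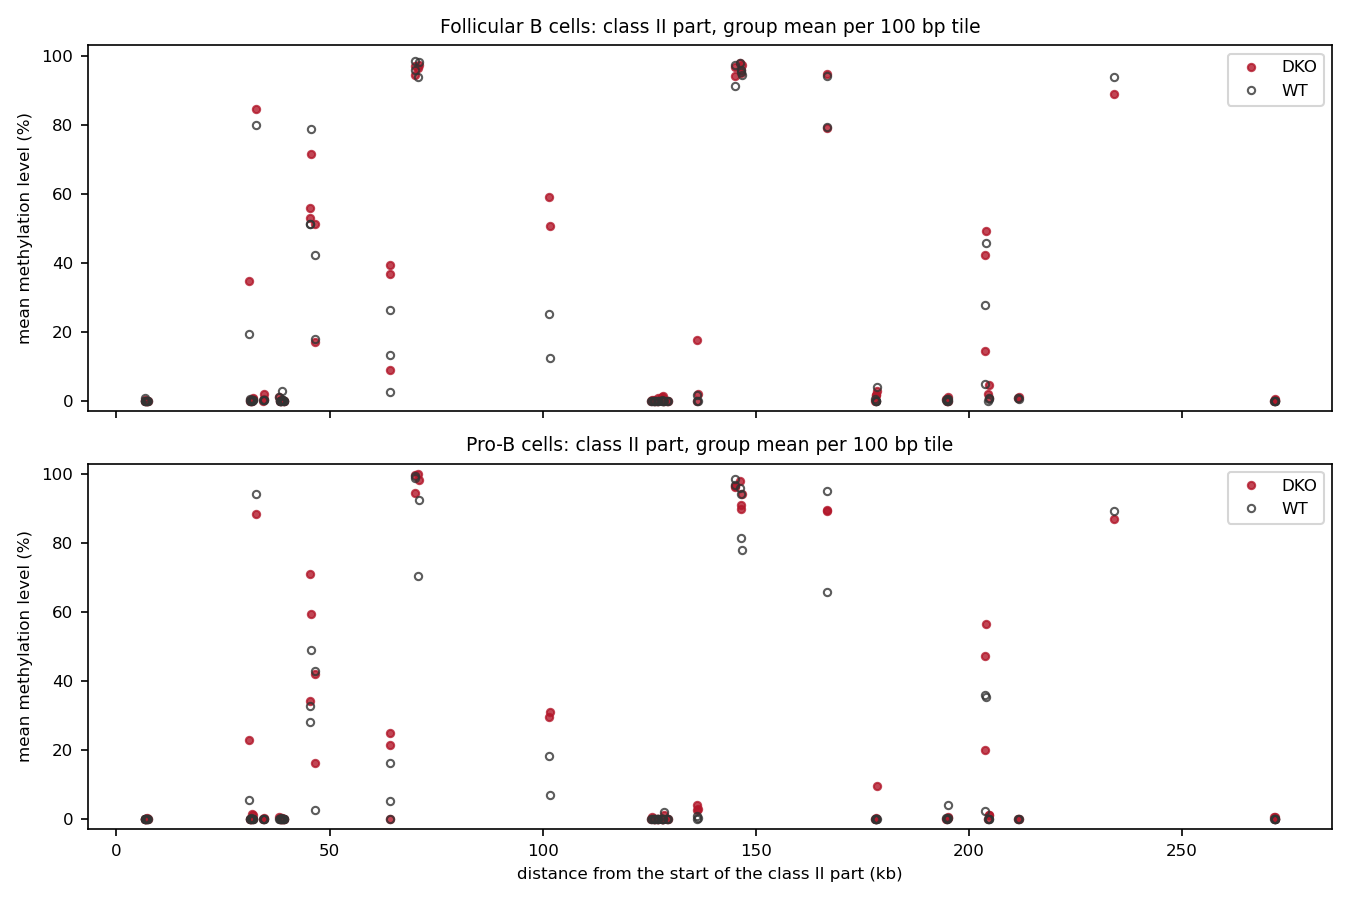
Group mean methylation level (%) at the 92 class II tiles with a value in 23 libraries, by distance from the start of the class II part (kb), in follicular cells (top) and pro-B cells (bottom). Filled points are DKO and open points WT. Most tiles sit at 0 to 5% or over 80% in both genotypes.

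Class II levels were higher in DKO than in WT at both stages. The mean over the 92 tiles was 21.3, 20.4 and 21.6% in the 3 FoB DKO libraries, against 18.96, 19.02 and 18.7% in FoB WT. The means differed by 2.16 points (SE 0.377) in a two-sided exact permutation test (p = 0.1, the smallest that 3 against 3 can give). Every DKO library lay above every WT library. Without the block chr17:34231601-34231800, described below, the difference was 1.40 points, still without overlap. In pro-B cells it was 20.9, 19.1 and 19.3% in DKO against 16.1, 16.8 and 17.3% in WT; the gap was 3.01 points (SE 0.667, exact permutation p = 0.1), again without overlap. FoB Tet3KO, at 19.4, 21.7 and 20.1%, lay 1.47 points above FoB WT (exact permutation p = 0.1), and FoB Tet2KO, at 19.2, 19.4 and 18.03%, differed from it by -0.0322 points (SE 0.435, exact permutation p = 1). ProB Tet2KO, at 17.8, 18.4 and 18.3%, lay 1.43 points above ProB WT (exact permutation p = 0.1). ProB Tet3KO, with 17.6 and 16.7% in its 2 usable libraries, was 0.441 points above and overlapped WT (exact permutation p = 0.5).

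In the rest of the region DKO was also above WT at both stages, by less. FoB DKO libraries were at 17.7, 16.7 and 17.3% against 16.3, 15.9 and 16.5% in FoB WT, 1.01 points higher (SE 0.340, exact permutation p = 0.1). ProB DKO exceeded ProB WT by 0.997 points (exact permutation p = 0.1). Over all 128596 autosomal tiles the same differences were 1.14 points in follicular cells and 1.18 in pro-B cells. Of the 20 comparisons of mean level over both parts, 11 had no overlap between groups, and the smallest Benjamini-Hochberg adjusted p was 0.182. Groups also stood apart over the autosomes. There FoB DKO (28.8 to 29.4%), FoB Tet3KO (28.5 to 29.1%) and FoB Tet2KO (28.43 to 28.46%) lay above FoB WT (27.9 to 28.2%). ProB DKO (27.5 to 29.0%) and ProB Tet2KO (27.2 to 28.1%) lay above ProB WT (26.5 to 27.1%), and ProB Tet3KO (26.9 to 27.2%) overlapped it.

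**Figure D2:**
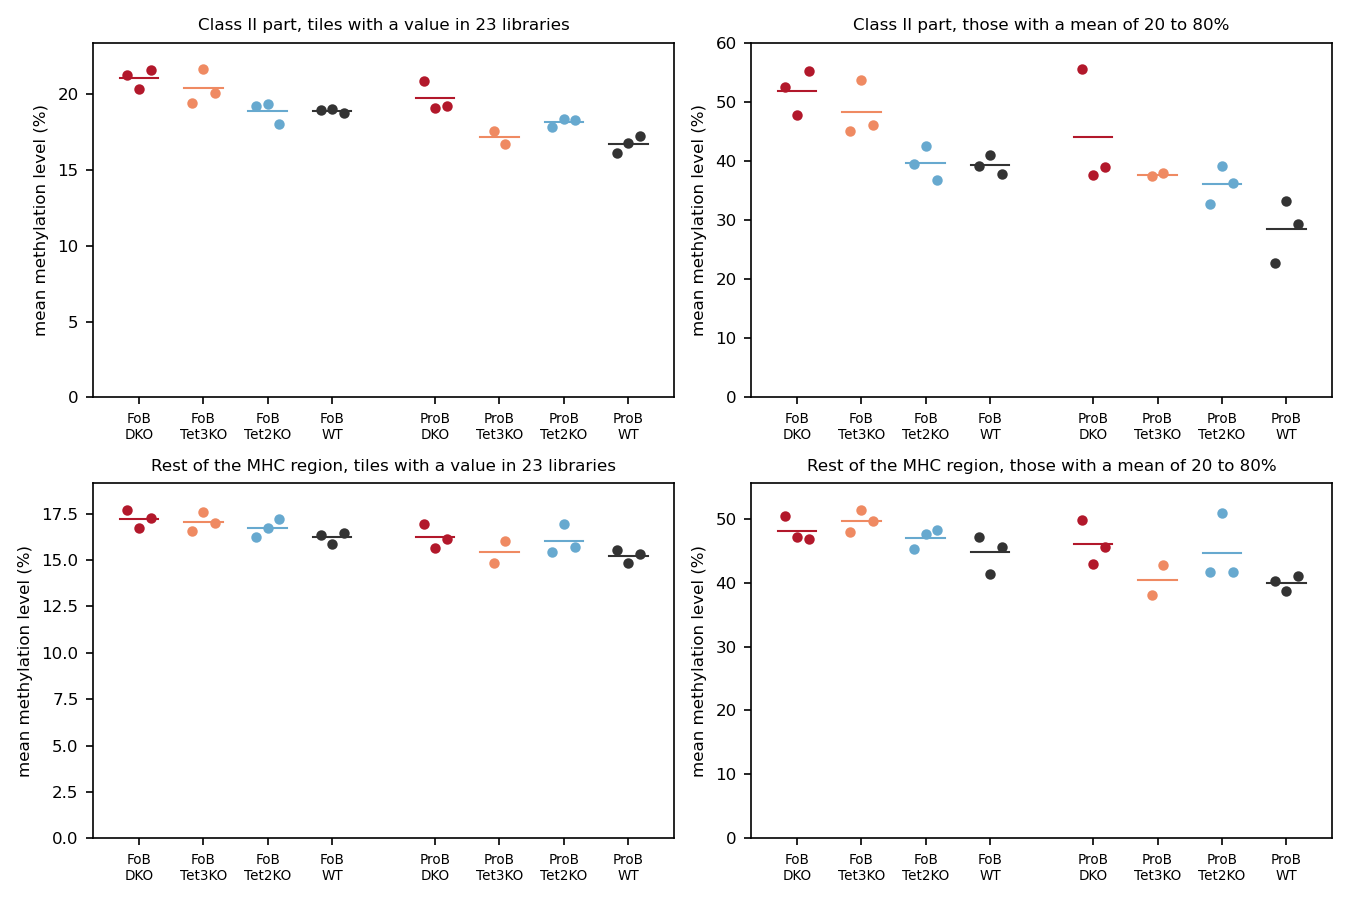
Mean methylation level (%) of each library, by group, over the class II part (top) and the rest (bottom), for all tiles with a value in 23 libraries (left) and for those with a mean of 20 to 80% (right). Points are libraries and lines are group means; pro-B Tet3KO has 2 libraries. FoB DKO and ProB DKO stand above WT in every panel by mean, and the tiles of the right panels were chosen by a mean that includes the DKO libraries.

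The class II part exceeded the rest by more in DKO than in WT. Within each library, its mean minus that of the rest was 3.54, 3.65 and 4.30 points in FoB DKO, against 2.62, 3.15 and 2.28 points in FoB WT, a gap of 1.15 points (SE 0.348, exact permutation p = 0.1). In pro-B cells it was 3.98, 3.44 and 3.10 points in DKO against 0.577, 1.97 and 1.92 points in WT, a gap of 2.02 points (SE 0.524, exact permutation p = 0.1). The single knockouts overlapped WT at both stages. The follicular gap leaned on 1 block of 2 tiles, chr17:34231601-34231800; without it, an alternative added after seeing the data, it was 0.392 points with overlap (exact permutation p = 0.3), and the pro-B gap was 1.69 points without overlap.

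Tiles were also classed by the WT level of the other stage, so that the libraries compared played no part in the choice, an alternative added after seeing the data. The 72 class II tiles under 20% in pro-B WT stood at 4.25% ± 1.10 in FoB DKO and 1.90% ± 0.0932 in FoB WT (SD, n = 3 each), a gap of 2.35 points without overlap. They include both tiles of chr17:34231601-34231800, at 59.2 and 50.6% in FoB DKO against 25.2 and 12.4% in FoB WT. The gap without these tiles was not computed. The gap of 2.35 points is a mean, and does not show that most of the 72 tiles rose. Over the 135 class II tiles tested singly, the median FoB DKO minus FoB WT difference was 0, with 61 above 0 and 34 below. Of these 135, 13 rose by 10 points or more and 0 fell as far. The 490 such tiles of the rest stood at 3.32% ± 0.260 in FoB DKO and 2.64% ± 0.157 in FoB WT, a gap of 0.684 points. Over the 87434 such autosomal tiles the gap was 0.964 points, and both gaps were also without overlap. The 9 class II tiles of 20 to 80% in pro-B WT stood at 66.2% ± 3.16 in FoB DKO and 62.7% ± 1.86 in FoB WT, with overlap (3.49 points, exact permutation p = 0.2), against gaps of 3.27 points over 73 tiles of the rest and 4.23 points over the autosomes. The 11 class II tiles over 80% in pro-B WT differed by -0.158 points. In pro-B cells, the 10 class II tiles of 20 to 80% in follicular WT stood at 54.2% ± 7.86 in DKO and 40.7% ± 6.03 in WT, without overlap (13.5 points, exact permutation p = 0.1), against 5.38 points over 73 tiles of the rest and 5.504 points over the autosomes. The difference between these gaps was not tested. When tiles were instead chosen by a mean of 20 to 80% over all 23 libraries, the DKO libraries helped to choose them, so the values are a description: at these 12 class II tiles FoB DKO averaged 52.6, 47.8 and 55.3%, FoB Tet3KO 45.1, 53.7 and 46.0%, FoB Tet2KO 39.6, 42.5 and 36.8%, and FoB WT 39.1, 41.1 and 37.9%. ProB DKO averaged 55.6, 37.7 and 38.9% there against 22.7, 33.3 and 29.3% in ProB WT, and library 10 stood apart from the other 2 DKO libraries.

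A run of 4 adjoining class II tiles, chr17:34231401-34231800, was more methylated in FoB DKO by mean at each tile. At its last tile FoB DKO had 60.4, 37.7 and 53.8%, against 11.2, 16.2 and 9.76% in FoB WT. All 3 DKO libraries were at least 21.4 points above all WT libraries. FoB Tet3KO, at 24.4, 38.5 and 31.6%, lay above WT with 1 library inside the DKO range, and FoB Tet2KO, at 13.1, 24.4 and 15.4%, overlapped WT. The difference was 38.2 points (SE 12.9) and was not called by limma (adjusted p = 0.445). At the second tile FoB DKO had 100, 78.3 and 100%, against 81.8, 54.5 and 37.5% in FoB WT, with overlap. The pro-B DKO libraries disagreed with one another here, with 74.8, 18.1 and 0% at the last tile, against 6.43, 11.4 and 2.99% in ProB WT. Taken as a block, the last 2 tiles differed by 36.1 points in follicular cells (adjusted p = 0.469) and by 17.7 points in pro-B cells (adjusted p = 0.696), and without pro-B DKO library 10 the pro-B difference changed sign.

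**Figure D3:**
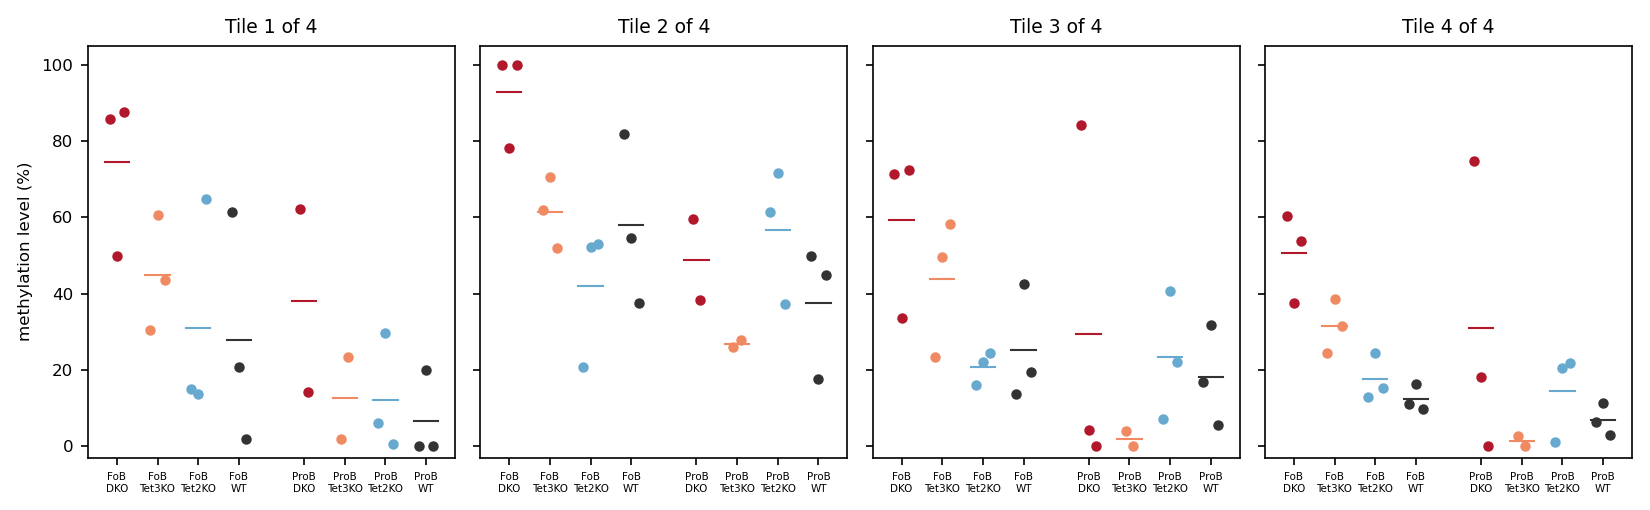
Methylation level (%) of each library at the 4 adjoining tiles of the class II run, by group. Points are libraries and lines are group means. The tiles were chosen by a mean that includes the DKO libraries. FoB DKO is highest by mean at each tile, and at tile 4 its libraries (37.7 to 60.4%) lie above those of FoB WT (9.76 to 16.2%), while in ProB DKO 1 library stands far above the others.

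At a second class II site the stages stood apart in 3 genotypes, and the difference passed the test in Tet3KO. At chr17:34194201-34194300 the level was 21.8, 33.3 and 23.9% in FoB WT against 2.91, 4.67 and 7.83% in ProB WT, and 28.5, 33.2 and 31.8% in FoB Tet2KO against 3.02, 7.55 and 14.8% in ProB Tet2KO. The stages were separate in both genotypes, by 21.2 points (adjusted p = 0.168) and 22.7 points (adjusted p = 0.226), and neither passed the test. In Tet3KO it was 38.3, 30.9 and 29.8% in FoB against 7.52, 0 and 5.24% in ProB, a rise of 28.7 points that did pass (limma, adjusted p = 0.0257). That call was lost without ProB library 8 (adjusted p = 0.0860) or FoB library 19 (adjusted p = 0.0727). In DKO the stages overlapped, at 49.3, 29.9 and 31.2% in FoB against 28.8, 12.8 and 32.6% in ProB. The difference between the DKO and WT stage changes was -9.09 points (SE 8.17, adjusted p = 0.890). The tile before it had 48.4, 27.5 and 42.3% in FoB DKO, against 14.3, 10.9 and 14.5% in FoB WT, a difference of 26.2 points without overlap (adjusted p = 0.226).

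At the tile chr17:34462701-34462800 FoB DKO had 50, 30.8 and 44%, FoB Tet3KO 13.3, 3.80 and 0%, and all FoB Tet2KO and FoB WT libraries 0%. Its difference from WT was 41.6 points (SE 20.2, adjusted p = 0.847), and 1 ProB WT library was at 100% there with the other 2 at 0. The block chr17:34333701-34334000 had 31.0, 39.8 and 35.1% in FoB DKO, 32.0, 50.9 and 36.4% in FoB Tet3KO, and 28.9, 25.0 and 24.3% in FoB WT; both knockouts lay above WT, and DKO differed by 9.24 points (adjusted p = 0.810). The block chr17:34175401-34175700 had 54.6, 61.8 and 64.0% in FoB DKO against 58.9, 61.5 and 60.8% in FoB WT, which overlap. Of ProB WT, 1 library was at 8.35% at that block, against 59.1 and 42.2% in the others.

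Few single tiles of the region passed the test, limma with an adjusted p under 0.05 over 200813 tiles and a difference of at least 20 points. For FoB DKO against FoB WT 1 tile was called higher, outside the class II part, where 0.128% of all tiles were, and 0 lower, where 0.000996% were. It is chr17:34727201-34727300, with 33.3 and 31.2% in 2 DKO libraries (library 23 had no value) against 4.76, 20 and 0% in WT (24.04 points, adjusted p = 0.0453). The call was lost without either DKO library or without WT library 13 or 15. Apart from calls, the 3 libraries of FoB DKO lay at least 10 points above the 3 of WT at 3 of 130 class II tiles and 7 of 858 tiles of the rest, where the share over all tiles was 0.942%; the 3 are the last tile of the run, the tile before chr17:34194201 and chr17:34462701. No tile of either part had the 3 FoB DKO libraries at least 10 points below the 3 of WT, where the share over all tiles was only 0.0385%. In pro-B cells the 3 DKO libraries lay at least 10 points above the 3 of WT at 0 class II tiles. They did so at 6 tiles of the rest, and the share over all tiles was 0.576%. They lay as far below WT at 0 class II tiles and 1 tile of the rest, where the share was 0.116%. For FoB Tet3KO and FoB Tet2KO against FoB WT no tile was called, where 0.00996% and 0.00299% were called higher. At an unadjusted p under 0.05 there were 3 class II tiles in each (2.22%), and 39 (4.24%) and 29 (3.16%) tiles of the rest. Of all tiles, 3.96% and 2.87% were under it.

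A block of 2 tiles outside the class II part, chr17:35069001-35069200, was called at both stages. FoB DKO had 29.9, 16.2 and 34.3%, FoB Tet3KO 6.39, 19.1 and 17.4%, FoB Tet2KO 1.59, 0.724 and 4.58%, and FoB WT 0.602, 0.549 and 0.287%. All libraries of the 3 knockouts lay above all WT libraries, and DKO overlapped Tet3KO. ProB DKO had 47.7, 38.2 and 37.7%, ProB Tet3KO 11.5 and 8.24%, ProB Tet2KO 2.98, 26.3 and 22.95%, and ProB WT 0, 10 and 7.52%. The 3 DKO libraries lay above every other pro-B library. Blocks are tiles with a value in 23 libraries joined within 500 bp, and are called at an adjusted p under 0.05 and 10 points. This block rose in FoB DKO against FoB WT by 26.3 points (SE 5.55, adjusted p = 0.0350), in ProB DKO against ProB WT by 35.4 points (adjusted p = 0.00642) and against ProB Tet3KO by 31.3 points (adjusted p = 0.0342). It was the only called block of the 146 in the region for FoB DKO, where 0.420% of all 27406 blocks were called higher. The follicular call was lost in 5 of 6 fits that left out a library, all but the one without DKO library 23, with adjusted p of 0.108 to 0.139. On the logit scale the calls of ProB DKO against ProB WT and against ProB Tet3KO were lost (limma, adjusted p = 0.0683 and 0.312).

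**Figure D4:**
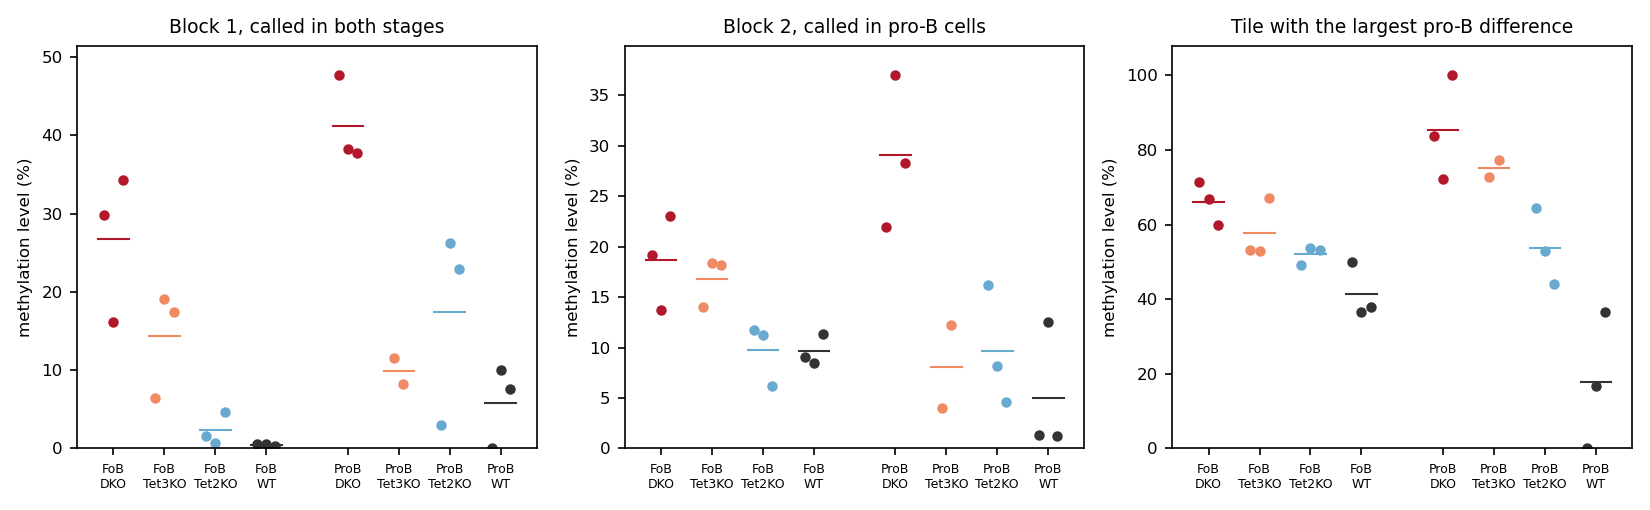
Methylation level (%) of each library by group at the block chr17:35069001-35069200 (left), the block chr17:35903301-35903600 (middle) and the tile chr17:35033501-35033600 (right); points are libraries and lines are group means. In pro-B cells the DKO libraries stand above all WT libraries in each panel, and in the left panel the FoB WT libraries lie under 1%.

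Pro-B cells gave more calls. Of single tiles, 3 rose and 1 fell in ProB DKO against ProB WT, none in the class II part, where 0.187% and 0.0438% of all tiles were called. The largest was chr17:35033501-35033600, with 83.8, 72.3 and 100% in DKO against 0, 16.8 and 36.7% in WT (67.5 points, adjusted p = 0.00203). It was also called in ProB Tet3KO, at 72.7 and 77.4% (57.2 points above WT, adjusted p = 0.00932), where 1 class II tile fell and 0.164% and 0.257% of all tiles were called higher and lower. ProB Tet2KO had 64.5, 52.96 and 44.05%, all above WT. In follicular cells DKO, at 71.4, 66.8 and 60%, stood above WT, at 50, 36.6 and 37.95%, by 24.6 points (adjusted p = 0.489).

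The other rises in ProB DKO were chr17:35069001-35069100, within the block above, and chr17:35903301-35903400. The last of these had 62.96, 80.4 and 65.5% in DKO against 3.85, 32.3 and 0% in WT (57.6 points, adjusted p = 0.0393). Its block, chr17:35903301-35903600, had 21.98, 36.998 and 28.3% in DKO against 1.28, 12.5 and 1.18% in WT (24.1 points, adjusted p = 0.0112) and was 1 of 2 blocks called higher, where 0.394% of all were; 0.0365% were called lower, none in the MHC. The tile that fell, chr17:35205101-35205200, had 83.3, 84.3 and 63.9% in DKO against 100% in all 3 WT libraries (-22.8 points, adjusted p = 0.0431). Without 1 library, the call at chr17:35903301 was lost for WT libraries 1 and 3 and DKO libraries 11 and 12 (adjusted p of 0.0519 to 0.0821), that at chr17:35205101 for WT libraries 1 and 3 and DKO library 12 (0.0504 to 0.0681), and that at chr17:35069001 for WT library 1 (0.0574). The block call at chr17:35903301 held in each such fit. ProB Tet2KO against ProB WT gave no called tile, where 0.0558% of all were called higher and 0.0129% lower. It had 6 class II tiles (4.44%) and 50 others (5.44%) at an unadjusted p under 0.05, against 6.76% of all tiles. No MHC block was called in ProB Tet2KO against ProB WT, where 0.0109% and 0.00365% of all were called higher and lower, nor in ProB Tet3KO against ProB WT, where 0.113% and 0.186% were. At an unadjusted p under 0.05 there were 4 class II blocks (16.7%) and 9 others (7.38%) in Tet2KO, against 7.79% of all blocks. In Tet3KO there were 2 (8.33%) and 16 (13.1%), against 10.9% of all blocks.

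**Figure D5:**
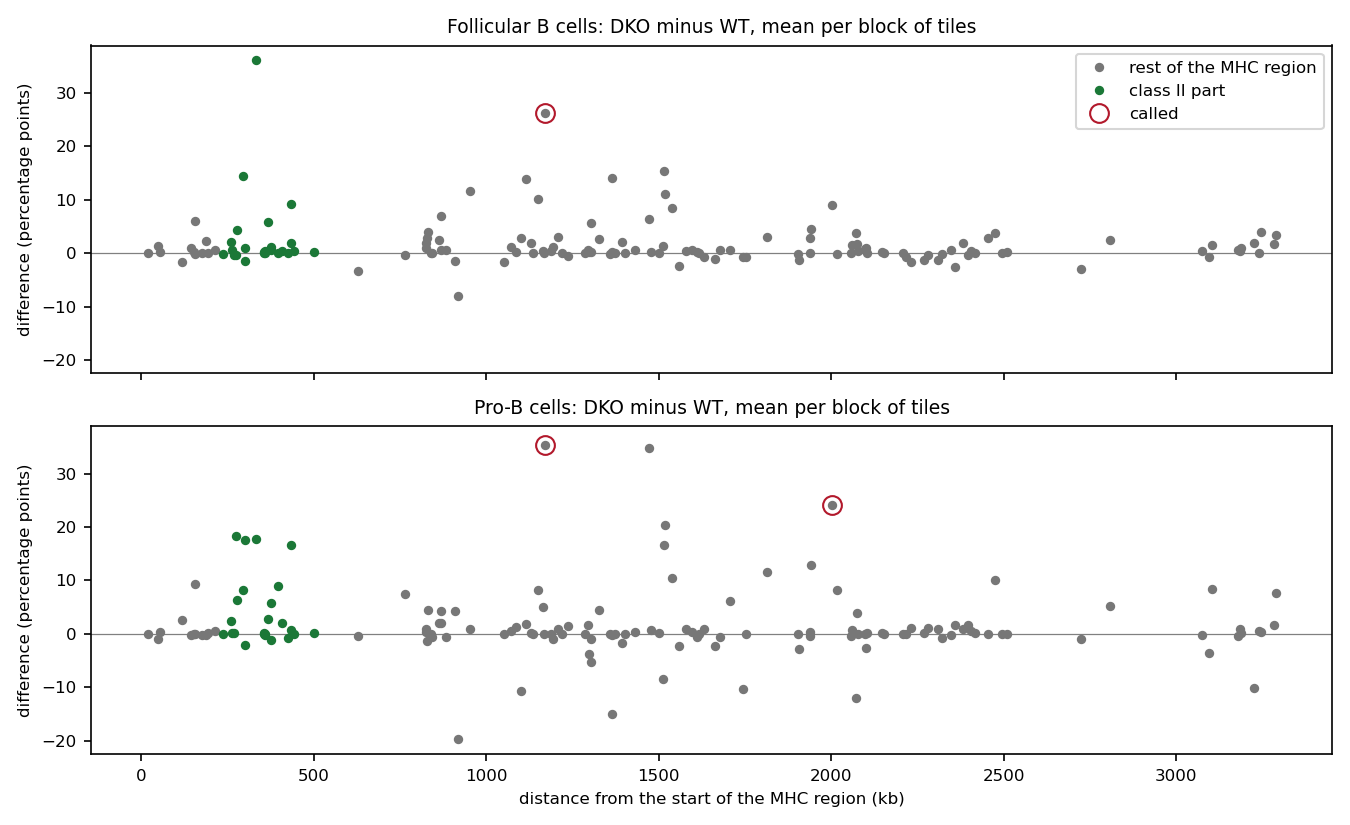
DKO minus WT difference (percentage points) of the 146 blocks by distance from the start of the region (kb), in follicular cells (top) and pro-B cells (bottom). Green points are class II blocks, grey points the rest, and red circles called blocks; most blocks lie near 0, and the class II block at 36.1 points in follicular cells is not called.

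The called class II tile that fell in ProB Tet3KO, chr17:34296801-34296900, had 50 and 75.7% in Tet3KO against 100, 95.7 and 89.6% in WT (-32.3 points, adjusted p = 0.0199). The call was lost without Tet3KO library 7 (adjusted p = 0.0820). The same libraries made it 1 of 2 class II tiles called higher in FoB Tet3KO than in ProB Tet3KO.

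Between stages, class II levels were higher in follicular than in pro-B WT cells, by 2.18 points (SE 0.336, exact permutation p = 0.1), against 0.984 points in the rest and 1.20 over the autosomes. In DKO the class II gap was 1.33 points with overlap (exact permutation p = 0.2), and in Tet2KO 0.716 points with overlap. FoB Tet3KO lay 3.21 points above 2 ProB Tet3KO libraries. No MHC tile was called between FoB WT and ProB WT, where 0.133% of all tiles were called higher and 0.0473% lower. At an unadjusted p under 0.05 there were 6 class II tiles (4.44%) and 66 others (7.18%), against 8.50% of all tiles. No MHC block was called there either, where 0.358% and 0.0766% of all were called higher and lower. Of blocks, 4 of class II (16.7%) and 14 others (11.5%) had an unadjusted p under 0.05, against 10.95% of all. Between FoB Tet2KO and ProB Tet2KO no tile was called, where 0.0364% and 0.0199% were. There 4 class II tiles (2.96%) and 58 others (6.31%) had an unadjusted p under 0.05, against 5.96% of all tiles. Between FoB Tet3KO and ProB Tet3KO 4 tiles rose and 1 fell, where 0.379% and 0.0378% of all did, a share of the 1054 tiles of 0.380% for the rises. The block chr17:35439301-35439500 also rose there, with 65.7, 65.5 and 82.3% in FoB against 30.4 and 31.5% in ProB (40.3 points, adjusted p = 0.0248), where 0.857% of all blocks were called higher. That call was lost without ProB library 9 (adjusted p = 0.0661) or FoB library 21 (adjusted p = 0.0905), and each of the 5 tile calls was lost without at least 1 of the 6 libraries. Between FoB DKO and ProB DKO the called tile was chr17:34727201-34727300, with 33.3 and 31.2% in FoB against 0, 14.3 and 0% in ProB (27.5 points, adjusted p = 0.0155, or 0.0622 without FoB library 22), where 0.139% were called higher and 0.0294% lower. No MHC block was called between these groups, where 0.620% were called higher and 0.0438% lower. At an unadjusted p under 0.05 there were 5 class II blocks (20.8%) and 18 others (14.75%), against 14.4% of all blocks.

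The change between stages was not shown to differ between genotypes. No MHC tile or block was called for the DKO, Tet2KO or Tet3KO stage change minus that of WT, where 0.0134%, 0.00299% and 0.0697% of all tiles were called higher and 0.0154%, 0.0115% and 0.0209% lower. Of all blocks, 0.0182% were called higher for DKO and none lower, none either way for Tet2KO, and 0.0146% higher and 0.00365% lower for Tet3KO. At an unadjusted p under 0.05 there were 6 class II tiles and 39 others for DKO, 4 and 31 for Tet2KO, and 7 and 48 for Tet3KO. Of all tiles, 5.525%, 3.93% and 6.335% were under it. The counts of blocks were 1 and 8, 1 and 4, and 2 and 5, against 6.05%, 3.69% and 6.25% of all blocks. Setting DKO against each single knockout, the calls were chr17:34727201-34727300 against FoB Tet2KO (30.2 points, adjusted p = 0.0108), where 0.0652% were called higher and 0.000996% lower, and chr17:35069001-35069100 against ProB Tet3KO (35.0 points, adjusted p = 0.0296), where 0.282% were called higher and 0.0563% lower. Against FoB Tet3KO no tile was called, where 0.0373% and 0.000996% were called higher and lower, and against ProB Tet2KO none, where 0.0403% and 0.0159% were. In these comparisons 10 class II tiles and 58 others, and 6 and 50, had an unadjusted p under 0.05, against 5.39% and 6.30% of all tiles.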

How the data were processed

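RRBS levels of 24 libraries were used; 16 RNA samples were not analysed here. The authors deposited a methylation fraction per 100 bp tile and library, without read counts. Trim Galore and methylKit, and the builds mm9 and hg19, are named per the submitters' processing notes; the aligner and coverage minimum are not given in the sources used here. Coordinates were taken as mm9 because tiles of chromosome 1 reach 197193600.

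Fractions were multiplied by 100. Limma 3.58.1 (R 4.3.3) was fitted with 8 group means and a trended prior over 200813 autosomal tiles, and over 27406 blocks of at least 2 tiles. Benjamini-Hochberg adjustment ran over all tiles or blocks. The procedure was tested on simulated data. Mean levels were compared by exact permutation over libraries. Named were all called tiles and blocks, the 4 largest differences per part for tiles and 3 for blocks in 3 comparisons, class II blocks of at least 3 tiles at 20 to 80%, and, added later, runs of class II tiles at that level. The level of these blocks and runs was a mean that includes the DKO libraries. The results were also computed on the logit scale, from the 2 compared groups alone, with a sex term, after centring libraries, and with other thresholds, tile sets, class II bounds and block gaps, a block on sex and age, and each library left out. The region, gene lists and tests were chosen with earlier results of these data known. CpG and CCGG were counted in RefSeq promoter windows (Python 3.11.15).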

Additional observations from a re-analysis of the deposited data

How the results depend on the processing

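Counts of called MHC tiles moved with most settings. For FoB DKO against FoB WT the 1 call became 0 at 30 points, with only those groups fitted, over tiles with a value in 24 or in 23 libraries, and after centring each library. For ProB DKO against ProB WT the 4 calls became 2 on the logit scale and 0 with only those groups or over 24-library tiles, and for ProB Tet3KO the 2 calls became 0 under the last 2 settings. Against single knockouts, FoB DKO over FoB Tet2KO went to 0 calls over 24-library or 23-library tiles. ProB DKO over ProB Tet2KO gave 1 call after centring in place of 0, and ProB DKO over ProB Tet3KO 2 calls on the logit scale or after centring and 0 over 24-library or 23-library tiles. Between stages, WT gave 1 call on the logit scale in place of 0. DKO gave 0 calls at 30 points, with only those groups, and over 24-library or 23-library tiles, and 2 after centring. Tet3KO gave 2 calls at 30 points, 0 with only those groups, 1 over 24-library and 3 over 23-library tiles, and 13 after centring, in place of 5. The cause was not tested.

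The replicate block of sex and age within a genotype gave 1 call between stages in WT in place of 0, 2 in DKO in place of 1, 3 in Tet3KO in place of 5 and 0 in Tet2KO. The labels give library numbers that no groups share, so this block rests on matching sex and age, not on a stated pairing. Called blocks numbered 2 for FoB DKO against FoB WT at 5 points in place of 1. On the logit scale they numbered 1 for ProB DKO against ProB WT in place of 2, 1 for each of the WT and DKO stage comparisons in place of 0, and 0 for ProB DKO against ProB Tet3KO in place of 1, which had 2 with tiles joined within 1000 bp.

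Differences of the class II mean changed sign for FoB Tet2KO against FoB WT (0.238 points over tiles of 20 to 80%, 2.11 over 24-library tiles, 0.547 over all tiles a library had), for ProB Tet3KO against ProB WT (-0.0522 over 24-library tiles, -3.89 over all tiles, -0.668 with narrower class II bounds) and for the Tet2KO stage comparison (-0.0206 after subtracting the autosomal mean). In the rest of the region, averaging all tiles a library had gave -0.620 points for FoB DKO, -0.300 for FoB Tet2KO and -1.32 for FoB Tet3KO against FoB WT, and -2.96 for ProB Tet3KO against ProB WT. Subtracting the autosomal mean gave -0.125 for FoB DKO against FoB WT, -0.179 for ProB DKO and -0.0584 for ProB Tet2KO against ProB WT, and -0.215, -0.161, -0.0355 and -0.181 for the WT, DKO, Tet2KO and Tet3KO stage comparisons. Medians gave -0.0439 for FoB Tet2KO and -0.103 for FoB Tet3KO against FoB WT. For the class II part minus the rest, medians gave -0.272 for FoB DKO and 0.0439 for FoB Tet2KO against FoB WT, and -0.502, -0.774, -0.458 and -0.230 for the WT, DKO, Tet2KO and Tet3KO stage comparisons. Narrower bounds gave -0.870 for ProB Tet3KO against ProB WT, -0.141 for the DKO and -0.567 for the Tet2KO stage comparison, and leaving out the block chr17:34231601-34231800 gave -0.194 for the DKO stage comparison.

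Leaving out 1 library at a time, called tiles ranged over 0 to 4 for FoB DKO against FoB WT, 2 to 11 for ProB DKO, 0 to 7 for ProB Tet2KO and 2 to 19 for ProB Tet3KO against ProB WT, and over 0 to 5, 1 to 6, 0 to 1 and 1 to 19 for the WT, DKO, Tet2KO and Tet3KO stage comparisons. Called blocks ranged over 0 to 2 for FoB DKO against FoB WT, 2 to 4, 0 to 2 and 0 to 5 for ProB DKO, ProB Tet2KO and ProB Tet3KO against ProB WT, and 0 to 1, 0 to 1 and 0 to 3 for the WT, DKO and Tet3KO stage comparisons. The class II mean ranged over -0.286 to 0.392 points for FoB Tet2KO against FoB WT, and the mean of the rest over -0.400 to 0.804 for ProB Tet3KO against ProB WT. The class II part minus the rest ranged over -0.937 to 0.127 for FoB Tet2KO against FoB WT, -0.793 to 1.27 for ProB Tet3KO against ProB WT and -0.389 to 0.675 for the Tet2KO stage comparison. The block chr17:34231601-34231800 ranged over -6.91 to 32.8 points in ProB DKO against ProB WT, with the lowest value without ProB DKO library 10. For DKO against WT, the class II mean differed in the same direction at both stages in each setting run, except that the pro-B medians were both 0. Over all tiles a library had, the groups overlapped at both stages, with 1.75 points in follicular cells (SE 1.06, exact permutation p = 0.2) and 1.66 points in pro-B cells (SE 8.44, exact permutation p = 0.8). With no coverage in the file, low depth at a tile cannot be told from variation between libraries.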
